A study of Mus musculus with 28 samples.

Results

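The cyclic AMP (cAMP) pathway genes Ptger4, Adcy8, Pde4a and Rapgef3 were followed through a survey of H3K27me3 in sorted mouse microglia. H3K27me3 is the trimethyl mark that Polycomb repressive complexes place on histone H3, and it is associated with genes that are kept silent. The genes were chosen with fold changes from the same 12 libraries in view, so their levels and fold changes are given here as a description, with no test. All regions that the deposited annotation assigned to one of these genes were taken. They came to 9 of 26326 regions, with 2 for Ptger4, 5 for Adcy8, 1 for Pde4a and 1 for Rapgef3.

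Chromatin immunoprecipitation sequencing (ChIP-seq) of H3K27me3 was done on 4 sorted groups of microglia from adult male wild-type C57BL/6 mice. Mice fed 0.2% cuprizone, a copper chelator that demyelinates the brain, for 4 weeks gave the subsets sorted as CD229-CD11c-, as CD229+CD11c- and as CD229+CD11c+, and basal microglia, sorted as CD44Low CD45Low CD11bLow, came from mice on a regular diet. CD229 (Ly9) is a receptor of the SLAM family and CD11c is an integrin alpha chain; both are surface proteins that served as sort markers. Each group had 3 libraries with counts, numbered 1 to 3 in the subsets and 3 to 5 in basal microglia, and brains of 2 to 6 mice were pooled for a sort, per the labels. Diet and sorting gate differ together between the subsets and basal microglia and cannot be told apart. The labels do not say whether the libraries of a group came from separate pools of mice, so the spread between them may be partly technical.

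cAMP is made by adenylyl cyclases when a receptor coupled to the stimulatory G protein Gs is occupied, and it is broken down by phosphodiesterases. It acts through protein kinase A, through the Epac exchange factors of the small GTPase Rap1 and through cyclic nucleotide-gated channels. In microglia and macrophages, agents that raise cAMP are known to restrain the release of inflammatory cytokines. Ptger4 encodes EP4, a Gs-coupled receptor of prostaglandin E2. Adcy8 encodes a calcium-stimulated adenylyl cyclase. Pde4a encodes a cAMP-specific phosphodiesterase, and Rapgef3 encodes Epac1.

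The mark lay over the start site of all 4 genes, and 3 of the genes had a promoter in the RefSeq sequence table (GRCm38.p6, 250 bases before to 50 after the start). These promoters are shown because each lies inside the region whose H3K27me3 level differed most between the groups for its gene. Capitals mark the letters TGACG, the first part of the cAMP response element TGACGTCA, searched on both strands; every match to the longer motif holds a match to the shorter one.
Ptger4 promoter, chr15:5244138-5244437, minus strand: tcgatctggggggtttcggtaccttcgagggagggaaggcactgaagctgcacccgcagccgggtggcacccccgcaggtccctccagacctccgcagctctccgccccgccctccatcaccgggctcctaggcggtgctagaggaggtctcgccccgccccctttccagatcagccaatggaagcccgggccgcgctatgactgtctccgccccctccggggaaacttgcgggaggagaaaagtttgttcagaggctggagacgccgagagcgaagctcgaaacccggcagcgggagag
Pde4a promoter 1, chr9:21165464-21165763, plus strand: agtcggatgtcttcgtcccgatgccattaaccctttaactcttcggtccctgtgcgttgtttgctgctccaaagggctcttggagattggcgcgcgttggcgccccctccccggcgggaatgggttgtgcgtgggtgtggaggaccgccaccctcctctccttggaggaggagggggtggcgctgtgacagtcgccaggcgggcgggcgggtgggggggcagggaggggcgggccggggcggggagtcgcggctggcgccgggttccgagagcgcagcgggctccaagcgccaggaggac
Rapgef3 promoter, chr15:97767617-97767916, minus strand: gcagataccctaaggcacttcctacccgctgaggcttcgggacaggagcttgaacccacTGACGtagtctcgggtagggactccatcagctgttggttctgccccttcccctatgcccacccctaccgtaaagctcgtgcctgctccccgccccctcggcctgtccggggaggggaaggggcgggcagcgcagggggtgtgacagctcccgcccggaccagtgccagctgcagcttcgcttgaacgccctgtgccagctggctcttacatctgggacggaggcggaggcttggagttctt
Neither the Ptger4 window nor that of Pde4a promoter 1 held TGACG. The Rapgef3 window held 1 match, 191 bases before the start. TGACG was found in 20.8% of all 32851 promoters of the table, and in 17.4% of the 7613 that lay inside a region. The 8-letter element was in 1.79% of all promoters and in 0 of the 3 shown.

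All 3 promoters were rich in G and C. GC made up 67.0% of the Ptger4 window, 70.0% of the Pde4a window and 65.0% of the Rapgef3 window, against a median of 52.7% over all promoters and 55.3% over those inside a region. The observed over expected ratio of CpG was 0.74 for Ptger4, 0.83 for Pde4a and 0.54 for Rapgef3, with a median of 0.38 over all promoters and 0.40 over those inside a region. Pde4a has 3 promoters in the table, from which isoforms of different length start. The first lay inside the region, and the other 2, at chr9:21183851-21184150 and chr9:21196455-21196754, lay outside any region. Promoter 2 held 1 match to TGACG, 50 bases before its start, and promoter 3 held 0.

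Read depth was similar between libraries, with 7740002 to 11362168 tags in the regions and a median of 151 to 222 tags per region. The regions had been called by the authors on 2 further basal libraries against their inputs, so a place that gained the mark only in a cuprizone subset is not among them. In the authors' deposited table, H3K27me3 over input in those basal libraries was 1.495 (Ptger4), 1.505 (Adcy8), 1.70 (Pde4a) and 2.05 (Rapgef3) on the log2 scale at the start-site regions. Of the regions, 19.97% spanned a start site. Of 6 microglia marker genes, 1 (Sall1) was the nearest gene of a region, and none had its start site inside one. Of 5 astrocyte markers all 5 were nearest to a region, and 4 had their start site inside one. For 5 neuron markers these counts were 4 and 4, and for 5 lymphocyte markers 4 and 3. For 5 endothelial markers they were 4 and 3, and for 5 oligodendrocyte markers 2 and 1. The titles of 8 of the 12 libraries carry the tag PE150, and those of basal replicate 3 and of replicate 3 of each subset do not. Untagged libraries of different groups deviated from their group means together (correlation of deviations over regions 0.243 to 0.457 in 6 pairs, against -0.373 to -0.001 in the 24 pairs of a tagged and an untagged library), so values within tagged and untagged libraries are given for the members. Deviations from a group mean cancel within the group, so the negative correlations follow in part from the positive ones. In sorted cells, a lower level in every cell and a smaller share of cells with the mark cannot be told apart.

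At the Ptger4 start site the mark was lower in both CD229+ subsets. The region, chr15:5241456-5253585 in mm10, is 12.13 kb long, reaches from upstream sequence over the start site into the gene, and was the only region over the gene body. In CPM, tag counts scaled to a common library total with TMM factors, its level was 29.7, 31.3 and 37.6 in CD229-CD11c- libraries, 21.6, 21.3 and 19.8 in CD229+CD11c- libraries, 18.4, 17.4 and 21.9 in CD229+CD11c+ libraries, and 40.4, 36.9 and 30.7 in basal libraries. Every CD229+ library lay below every CD229-CD11c- and basal library, the CD229-CD11c- and basal libraries overlapped, and so did the CD229+ subsets. From lowest to highest the means were 19.3 ± 2.38 CPM in CD229+CD11c+ cells, 20.9 ± 0.989 in CD229+CD11c- cells, 32.9 ± 4.18 in CD229-CD11c- cells and 36.0 ± 4.91 in basal microglia (SD, n = 3 each).

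Against basal microglia the log2 fold change at the Ptger4 start site was -0.13 ± 0.12 (SE) in CD229-CD11c- cells, -0.78 ± 0.13 in CD229+CD11c- cells and -0.90 ± 0.13 in CD229+CD11c+ cells. Ptger4 was the only one of the 4 genes with less mark at its start site in both CD229+ subsets. Within the tagged libraries the change against basal was -0.65 in CD229+CD11c- cells and -0.91 in CD229+CD11c+ cells, and between the untagged libraries -1.02 in CD229+CD11c- and -0.88 in CD229+CD11c+ cells. The difference between the CD229+ subsets, -0.11 ± 0.13, was smaller than its error and had opposite signs in the tagged (-0.26) and untagged (0.15) libraries.

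The other Ptger4 region, chr15:5260971-5266227, is centred 19.4 kb upstream and overlaps the predicted gene Gm41257. It is separated from the start-site region by 7.4 kb without a region. Its level was 11.3, 12.9 and 14.6 CPM in CD229-CD11c- cells, 10.0, 10.6 and 13.2 in CD229+CD11c- cells, 11.3, 15.5 and 16.6 in CD229+CD11c+ cells and 14.6, 15.8 and 14.3 in basal libraries. The CD229+CD11c- libraries lay below the basal ones (log2 fold change -0.40 ± 0.16), while the CD229+CD11c+ libraries fell on both sides of them (-0.04 ± 0.16). The lower level in CD229+CD11c+ cells was thus seen over the start site and not at the upstream region; this difference between the regions was not tested.

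**Figure D1:**
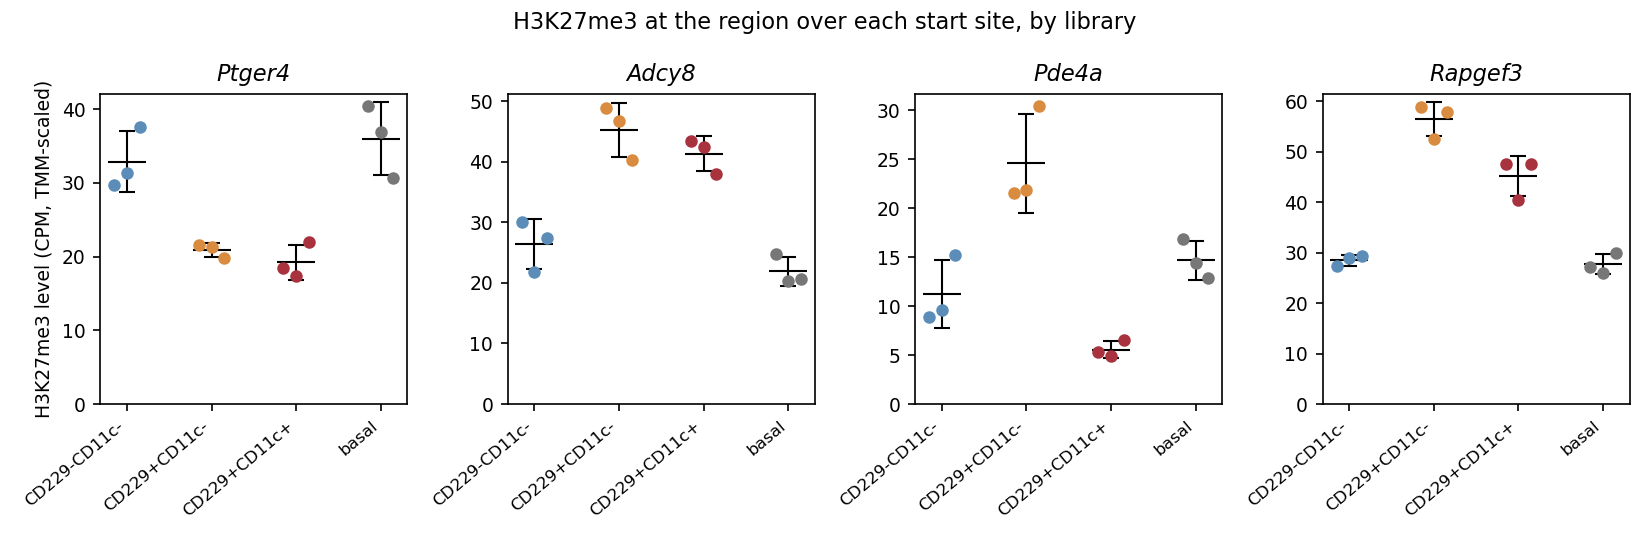
H3K27me3 level (CPM, y axis from 0) at the region over the start site of each gene in the 12 libraries, by group; points are libraries, in order of replicate number, horizontal lines the mean and bars the SD (n = 3). Ptger4 was lower in both CD229+ subsets than in basal microglia, Adcy8 and Rapgef3 were higher in both, and Pde4a was highest in CD229+CD11c- cells and lowest in CD229+CD11c+ cells.

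Adcy8 showed the opposite direction at its start site. The region over it, chr15:64915921-64924287, includes the promoter and part of intron 1. Its level was 30.0, 21.8 and 27.5 CPM in CD229-CD11c- cells, 48.9, 46.6 and 40.3 in CD229+CD11c- cells, 43.5, 42.4 and 38.0 in CD229+CD11c+ cells and 24.7, 20.3 and 20.6 in basal libraries. All 6 CD229+ libraries lay above all 6 others. The means were 26.4 ± 4.19 in CD229-CD11c-, 45.3 ± 4.47 in CD229+CD11c-, 41.3 ± 2.89 in CD229+CD11c+ and 21.9 ± 2.45 CPM in basal microglia. CD229+CD11c- was highest, but overlapped CD229+CD11c+, and basal was lowest, but overlapped CD229-CD11c-. The log2 fold change against basal was 0.28 ± 0.13 in CD229-CD11c- cells, 1.05 ± 0.12 in CD229+CD11c- cells and 0.92 ± 0.12 in CD229+CD11c+ cells. Tagged libraries gave larger values for the CD229+ subsets (1.22 in CD229+CD11c- cells and 1.07 in CD229+CD11c+) than untagged ones (0.70 in CD229+CD11c- cells and 0.62 in CD229+CD11c+), with the same sign.

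The other 4 Adcy8 regions lay far downstream and differed less from basal in the CD229+ subsets. The region centred 135.4 kb from the start, chr15:64786242-64787492 in intron 6, held 14 to 44 tags per library, the lowest counts among the 9 regions, and its log2 fold change against basal was -0.50 ± 0.32 in CD229-CD11c- cells, 0.02 ± 0.30 in CD229+CD11c- cells and -0.56 ± 0.32 in CD229+CD11c+ cells. The region at the end of the gene, chr15:64696141-64699955, and the largest one beyond it, chr15:64645059-64664245, had log2 fold changes between -0.07 and 0.08 in all 3 subsets. The region between them, chr15:64666587-64672310, was lower in CD229-CD11c- cells, with 15.7, 17.3 and 17.8 CPM against 20.3, 19.5 and 22.4 CPM in basal libraries (-0.29 ± 0.12), and differed by -0.09 ± 0.12 in CD229+CD11c- cells and -0.10 ± 0.12 in CD229+CD11c+ cells. Its CD229+ libraries, at 18.8 to 20.1 CPM, lay above the CD229-CD11c- libraries, as at the start site, by 0.20 on the log2 scale in either subset. It was the only member region whose CD229-CD11c- and basal libraries did not overlap. Per kb, the levels of the far regions apart from the one in intron 6 were close together in basal microglia (3.26 to 3.62 CPM per kb) and above that at the start site (2.62), while in CD229+CD11c- cells the start site (5.41) exceeded them all (3.28 to 3.53).

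**Figure D2:**
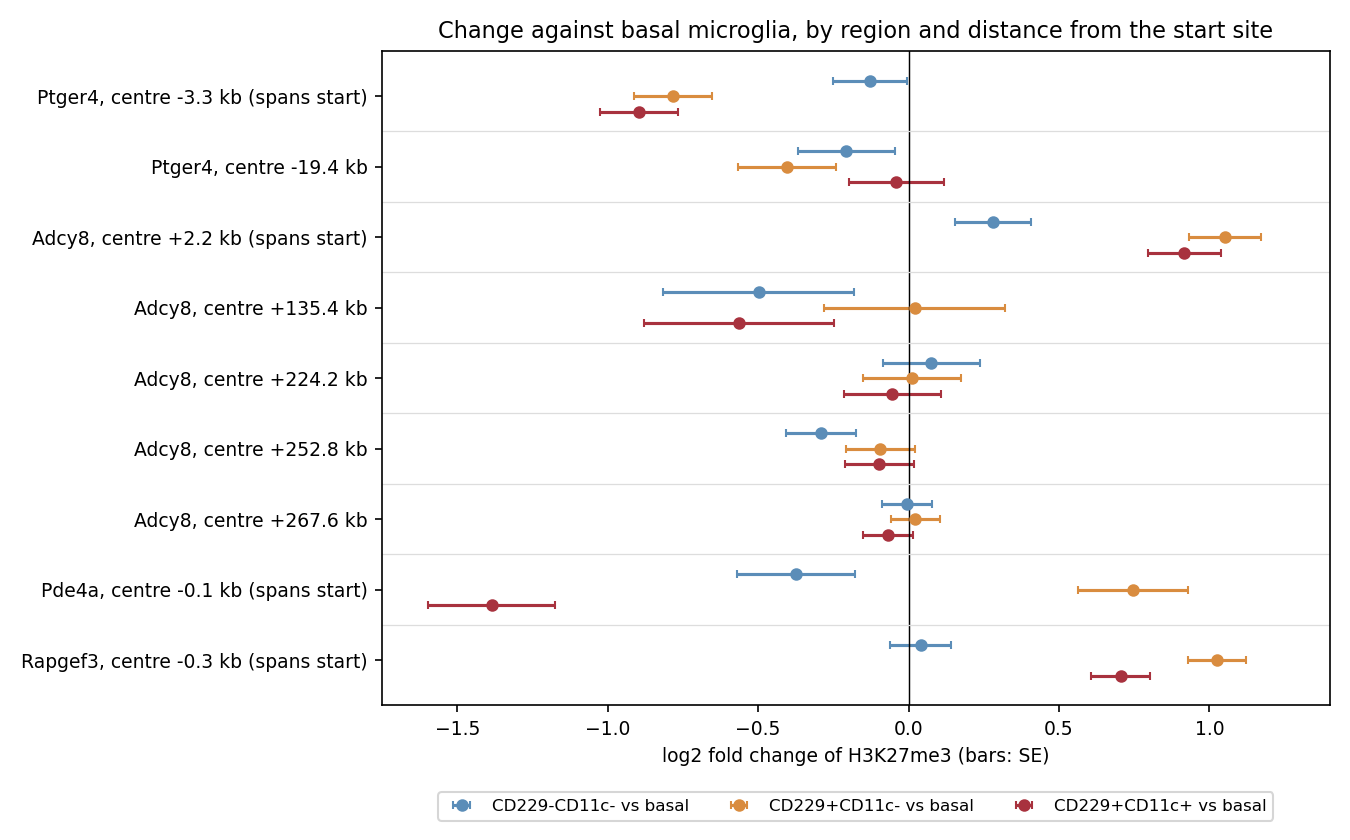
log2 fold change of H3K27me3 against basal microglia (x axis) for each of the 9 regions, with its distance from the start site; points are the 3 subsets and bars the SE. Over the start sites the CD229+ subsets lay between -1.39 and 1.05, and CD229-CD11c- cells between -0.37 and 0.28.

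At Pde4a the mark differed between the CD229+ subsets in opposite directions from basal microglia. The region, chr9:21163796-21167472, is 3.68 kb long and lies over the first of the gene's promoters; it also overlaps the predicted gene Gm36118, and no other region lay over the gene body. Its level was 8.86, 9.59 and 15.2 CPM in CD229-CD11c- cells, 21.5, 21.9 and 30.4 in CD229+CD11c- cells, 5.27, 4.85 and 6.54 in CD229+CD11c+ cells and 16.8, 14.4 and 12.9 in basal libraries. All CD229+CD11c- libraries lay above all others and all CD229+CD11c+ libraries below all others, while CD229-CD11c- and basal libraries overlapped. The means were 11.2 ± 3.46 in CD229-CD11c-, 24.6 ± 5.04 in CD229+CD11c-, 5.56 ± 0.882 in CD229+CD11c+ and 14.7 ± 1.99 CPM in basal microglia. The untagged library was the highest of its group in all 4 groups.

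Against basal microglia, the log2 fold change at Pde4a was -0.37 ± 0.20 in CD229-CD11c- cells, 0.75 ± 0.18 in CD229+CD11c- cells and -1.39 ± 0.21 in CD229+CD11c+ cells. CD229+CD11c+ cells differed from CD229+CD11c- cells by -2.13 ± 0.21, a 4.38-fold lower level and the lowest value of all 26326 regions in that comparison. Next to it stood the region of Egr2, at -1.99, and 1% of regions lay below -0.50. Within tagged libraries the difference was -2.09, and between untagged ones -2.18. In CD229+CD11c- against CD229-CD11c- cells it was 1.12 ± 0.19, and in CD229+CD11c+ against CD229-CD11c- cells -1.01 ± 0.22. CD229+CD11c+ cells held 43 to 74 tags in the region, so their level rests on fewer tags than that of the other groups (76 to 271).

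**Figure D3:**
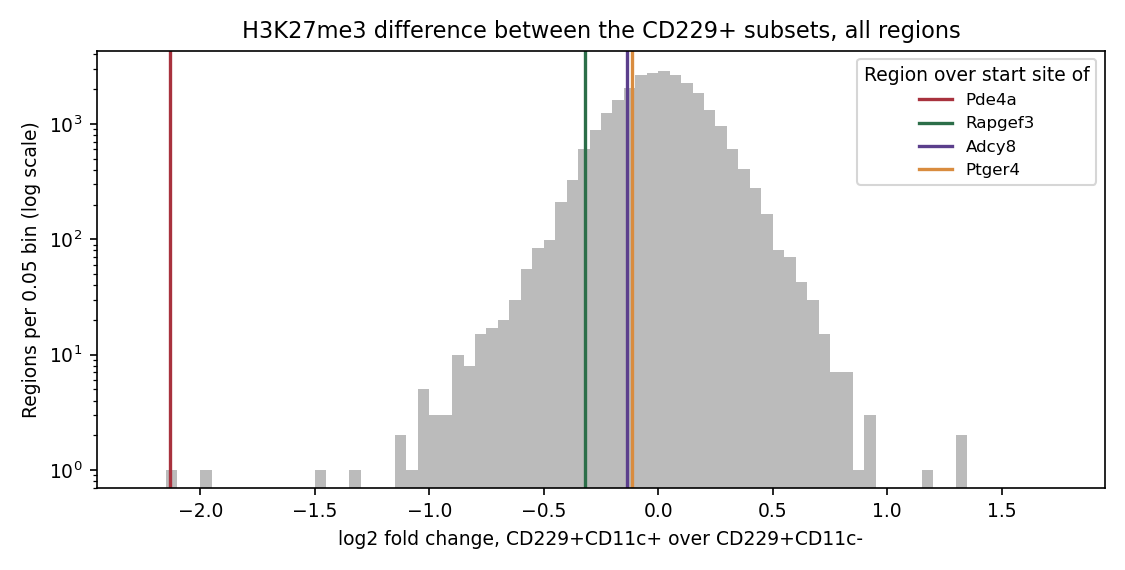
Number of regions (y axis, log scale) by log2 fold change of CD229+CD11c+ over CD229+CD11c- cells (x axis, bins of 0.05) over all 26326 regions, with vertical lines at the start-site regions of the 4 genes. Pde4a, at -2.13, lay at the far low end, while Ptger4 (-0.11) and Adcy8 (-0.14) lay within the bulk of the regions. Rapgef3 (-0.32) lay on the low side, at rank 1226 from the lowest.

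Rapgef3 resembled Adcy8. Its region, chr15:97764057-97771927, spans the promoter and is 7.87 kb long; it overlaps the predicted gene Gm46535 and Rapgef3os2, a transcript of the opposite strand, and ChIP-seq does not tell the strands apart. The level was 27.3, 28.9 and 29.4 CPM in CD229-CD11c- cells, 58.9, 52.6 and 57.8 in CD229+CD11c- cells, 47.5, 40.5 and 47.5 in CD229+CD11c+ cells and 27.2, 26.0 and 29.9 in basal libraries. All libraries of both CD229+ subsets lay above all others, and those of CD229+CD11c+ lay below those of CD229+CD11c-. Group means came to 28.5 ± 1.09 in CD229-CD11c-, 56.4 ± 3.39 in CD229+CD11c-, 45.2 ± 4.03 in CD229+CD11c+ and 27.7 ± 2.01 CPM in basal microglia, and only CD229-CD11c- and basal overlapped. The log2 fold change against basal was 0.04 ± 0.10 in CD229-CD11c- cells, 1.02 ± 0.10 in CD229+CD11c- cells and 0.70 ± 0.10 in CD229+CD11c+ cells. It varied little with the tag, at 1.00 (tagged) and 1.08 (untagged) in CD229+CD11c- cells. Between the CD229+ subsets, CD229+CD11c+ cells differed by -0.32 ± 0.09.

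The start-site regions of the 4 genes differed little in level per length in basal microglia, at 2.97 (Ptger4), 2.62 (Adcy8), 3.99 (Pde4a) and 3.52 (Rapgef3) CPM per kb. In CD229+CD11c- cells they spread to 1.72 for Ptger4, 5.41 for Adcy8, 6.69 for Pde4a and 7.17 for Rapgef3. In CD229+CD11c+ cells Ptger4 (1.59) and Pde4a (1.51) stood together at the low end, apart from Adcy8 (4.94) and Rapgef3 (5.74). CD229+CD11c- cells thus carried more mark over the cyclase, the phosphodiesterase and the Epac gene and less over the receptor gene than basal cells, and CD229+CD11c+ cells differed from that pattern at the phosphodiesterase.

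The Rapgef3 gene body lay under 2 regions, its own and chr15:97737276-97758360, which was assigned to Endou and covers part of the gene. The nearest neighbours of the Rapgef3 region, 5.7 kb away at Endou and 3.3 kb away at Slc48a1, had log2 fold changes of 0.01 ± 0.10 and 0.39 ± 0.15 in CD229+CD11c- against basal cells, where the Rapgef3 start site had 1.02. Those of the Pde4a region lay 109.2 kb away at Zglp1 and 56.6 kb away at Keap1, and in CD229+CD11c+ against CD229+CD11c- cells they differed by -0.15 ± 0.14 and 0.08 ± 0.19, where Pde4a differed by -2.13. Beyond the Ptger4 start site, the next region downstream was 155.8 kb away at C7, with -0.34 ± 0.14 in CD229+CD11c+ against basal cells. The Adcy8 start-site region was set further apart, with the intron 6 region 128.4 kb away, and the next one on the other side 785.6 kb away at Efr3a. The region at Efr3a had log2 fold changes of -0.69 ± 0.28 in CD229+CD11c- and -0.03 ± 0.26 in CD229+CD11c+ against basal cells. In CD229+CD11c+ against CD229+CD11c- cells the intron 6 region differed by -0.58 ± 0.32 and the one at Efr3a by 0.66 ± 0.28, where the Adcy8 start site differed by -0.14. The upstream Ptger4 region differed by 0.36 ± 0.17 there, and the Ptger4 start site by -0.11.

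Counts of members were read against all regions. In CD229-CD11c- against basal cells, 1 of 9 member regions did not overlap between the groups (the Adcy8 region beyond the gene end, lower), where 8.6% of all regions did not. In CD229+CD11c- against basal cells it was 3 higher and 2 lower, with 31.0% over all regions, and in CD229+CD11c+ against basal cells 2 higher and 3 lower, with 27.6%. CD229+CD11c- against CD229-CD11c- cells gave 4 higher and 1 lower (22.9% over all regions), CD229+CD11c+ against CD229-CD11c- cells 3 higher and 2 lower (14.6%), and CD229+CD11c+ against CD229+CD11c- cells 0 higher and 2 lower (19.2%). Since the genes were chosen on these libraries, nothing is read from these counts. The comparisons against basal share the same 3 basal libraries.

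By likeness over the 12 libraries (Pearson's r of log2 CPM, 3 regions of other genes per member), the closest to Ptger4 were Pde6h (0.96), Mcub (0.956) and Slc6a2 (0.955), and to Rapgef3 were Sgsh (0.982), Drc1 (0.98) and Mmp15 (0.978). For Adcy8 the closest was the start-site region of Ptger3 (0.971), another prostaglandin E2 receptor gene, followed by Igfbp5 and Tlx1 (0.97 each). Pde4a had the least close neighbours, Phldb1 (0.941), St8sia6 (0.925) and Thap7 (0.921). The libraries fall into 4 groups, so these are not 12 independent points.

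The rest of the pathway was covered by a list of 155 other cAMP genes, of which 106 were the nearest gene of at least 1 region, with 319 regions in all. In CD229-CD11c- against basal cells, 0 of the 319 changed by edgeR's quasi-likelihood test with Benjamini-Hochberg adjustment over all regions (15 at an unadjusted p under 0.05); of all regions 0, or 0.0%, changed (1103 at an unadjusted p under 0.05), and DESeq2 also gave 0. Within tagged libraries alone, however, 916 regions and 13 list regions changed, and with the tag as a covariate 33 and 1. In CD229+CD11c- against basal cells 40 rose and 8 fell, where 13.0% of all regions changed (2506 rose and 913 fell). In CD229+CD11c+ against basal cells 21 rose and 1 fell, where 5.79% of all regions changed (1139 rose and 386 fell). The median log2 fold change of the list was -0.02 in CD229+CD11c- cells and 0.04 in CD229+CD11c+ cells, against -0.03 and -0.01 over all regions.

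The rises lay mostly over start sites. Of the list regions, 92 spanned a start site, and 37 of these rose and 2 fell in CD229+CD11c- against basal cells, where over all 5258 such regions 1855 rose and 115 fell. Of the 227 list regions without a start site 3 rose and 6 fell, where 651 rose and 798 fell of 21068 such regions in all. In CD229+CD11c+ cells 21 of the 92 rose and 0 fell, with 845 and 84 of the 5258. The split depended on scaling: with library totals in place of TMM, 23 list regions rose and 46 fell in CD229+CD11c- cells and 13 rose and 3 fell in CD229+CD11c+ cells, and with loess offsets for basal enrichment and tag density 17 rose and 9 fell in CD229+CD11c- cells. Totals shifted the median of all regions in CD229+CD11c- against basal cells to -0.16, and the list's median was then also -0.16. Over start sites of the list, 21 rose and 6 fell in CD229+CD11c- cells with totals.

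Among prostaglandin E2 genes, the region 26.6 kb upstream of Ptgs1, the constitutive cyclooxygenase, and the start sites of Ptges, a prostaglandin E synthase, and Slco2a1, a prostaglandin carrier, rose in CD229+CD11c- cells (3 of 11 regions; edgeR adjusted p = 0.000427 for Ptgs1 and 0.00114 for Ptges). The other prostaglandin E2 receptors moved both ways. The region over the Ptger3 start site held 30.8 ± 2.69 CPM in CD229+CD11c- cells, 26.0 ± 1.63 in CD229+CD11c+ cells and 15.7 ± 0.848 in basal cells, a rise of 0.98 ± 0.13 on the log2 scale in CD229+CD11c- (edgeR adjusted p = 1.55e-05) and 0.73 ± 0.13 in CD229+CD11c+ cells (0.00176). An intergenic region 156.2 kb from that start, with Ptger3 as its nearest gene, fell by 0.48 in CD229+CD11c- (edgeR adjusted p = 0.00457) and by 0.43 in CD229+CD11c+ cells (0.021). Ptger2 encodes the other Gs-coupled prostaglandin E2 receptor. A region in its exon 1, centred 1.5 kb from the start, fell to 6.06 ± 0.70 CPM in CD229+CD11c- cells, against 10.1 ± 1.08 in basal cells (log2 fold change -0.74 ± 0.18, edgeR adjusted p = 0.00603). The direction in these cells was that of the Ptger4 start site. By the rule used here the Ptger2 region spans no start site, but its edge lies close to the start. In CD229+CD11c+ cells it differed from basal by -0.285 ± 0.168 and was not called (edgeR adjusted p = 0.351).

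Of 81 regions of Gs-coupled receptor genes, 7 rose and 3 fell in CD229+CD11c- cells (12.3%, near the 13.0% of all regions), and 1 rose in CD229+CD11c+ cells (1.23%, against 5.79% of all regions). The glucagon receptor gene Gcgr (0.71 ± 0.09, edgeR adjusted p = 5.72e-06), the parathyroid hormone receptor gene Pth1r (0.53) and the serotonin receptor gene Htr6 (0.48) rose in CD229+CD11c- cells. Of 78 regions of Gi-coupled receptor genes, whose products lower cAMP synthesis, 11 rose and 4 fell in CD229+CD11c- cells (19.2%), and 6 rose and 1 fell in CD229+CD11c+ cells (8.97%). The adrenergic receptor gene Adra2a held 98.8 ± 2.01 CPM in CD229+CD11c- cells, 78.0 ± 4.65 in CD229+CD11c+ cells and 49.0 ± 5.46 in basal cells (1.01 ± 0.10 and 0.67 ± 0.10 against basal, edgeR adjusted p = 4.21e-07 and 0.000245). The adenosine receptor gene Adora1 fell at its region 10.8 kb from the start in CD229+CD11c- cells (-0.79). Its start-site region fell there as well (-0.60 ± 0.18, edgeR adjusted p = 0.0325).

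Further along the pathway, 4 of 17 regions of G protein alpha subunit genes rose in both CD229+ subsets. Among them were 2 over annotated start sites of Gnas, a gene whose products include the Gs alpha subunit. Which transcript starts in either region was not examined, so neither is read as the Gs alpha promoter. The Gnas region centred 0.7 kb upstream held 64.1 ± 3.35 CPM in CD229+CD11c- cells, 54.6 ± 6.25 in CD229+CD11c+ cells and 34.6 ± 2.47 in basal cells (0.89 ± 0.11 and 0.66 ± 0.11, edgeR adjusted p = 6.78e-06 and 0.00106). Of 12 regions of other adenylyl cyclase genes 2 rose in CD229+CD11c- cells. One was the start-site region of Adcy6, chr15:98605002-98610996, with 28.1 ± 2.69 CPM in CD229+CD11c- cells, 16.6 ± 1.81 in CD229+CD11c+ cells and 11.8 ± 0.783 in basal cells (1.25 ± 0.14 and 0.50 ± 0.14, edgeR adjusted p = 2.31e-06 and 0.0438); the other was Adcy5 (0.35). Like Pde4a, Adcy6 had less mark in CD229+CD11c+ than in CD229+CD11c- cells, where it fell by 0.76 (edgeR adjusted p = 0.013), but it stayed above basal.

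Of 66 regions of other phosphodiesterase genes, 5 rose and 1 fell in CD229+CD11c- cells (9.09%, with 13.0% over all regions). In CD229+CD11c+ cells 2 rose (3.03%, with 5.79% over all regions). Pde2a (0.96 ± 0.19, edgeR adjusted p = 0.00113), Pde10a (0.47), Pde8b (0.41) and Pde4c (0.39, but -0.01 with loess offsets) each rose at a start-site region in CD229+CD11c- cells. Another start-site region was not called for Pde2a (-0.03 ± 0.07), Pde10a (0.18 ± 0.07) and Pde8b (0.14 ± 0.08). A region with few tags in intron 5 of Pde4b, 37.9 kb before an internal start, also rose. It held 4.70 ± 1.86 CPM in CD229+CD11c- cells and 2.07 ± 0.445 in basal cells. The called regions of Pde10a (0.31) and Pde8b (0.40) also rose in CD229+CD11c+ cells. In CD229+CD11c+ cells no phosphodiesterase region of the list fell against basal, where only 1.47% of all regions fell, so nothing is read from this. Among the effectors, 2 of 8 Epac and Rap1 regions rose in CD229+CD11c- cells, with Rapgef4 (Epac2) at 0.31 (edgeR adjusted p = 0.00365), and 0 in CD229+CD11c+ cells. Of the channel and Popeye genes, 4 of 17 regions rose in each CD229+ subset, with the Popeye gene Bves at 0.64 in CD229+CD11c- cells and 0.51 in CD229+CD11c+ cells. Of 8 protein kinase A regions 1 rose in each CD229+ subset. Of 17 regions of anchoring proteins 1 rose in CD229+CD11c- cells (0.37, but -0.17 with loess offsets). Of 4 CREB regions 0 changed in either subset. The groups of 4 to 17 regions are too small to set their shares against those of all regions. Calls also depended on position. Over all regions, 37.5% of those spanning a start site and 6.88% of the others were called in CD229+CD11c- against basal cells. In CD229+CD11c+ cells it was 17.7% and 2.83%. The role groups, large ones included, were not matched for position, so no excess or shortfall is read from their shares.

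**Figure D4:**
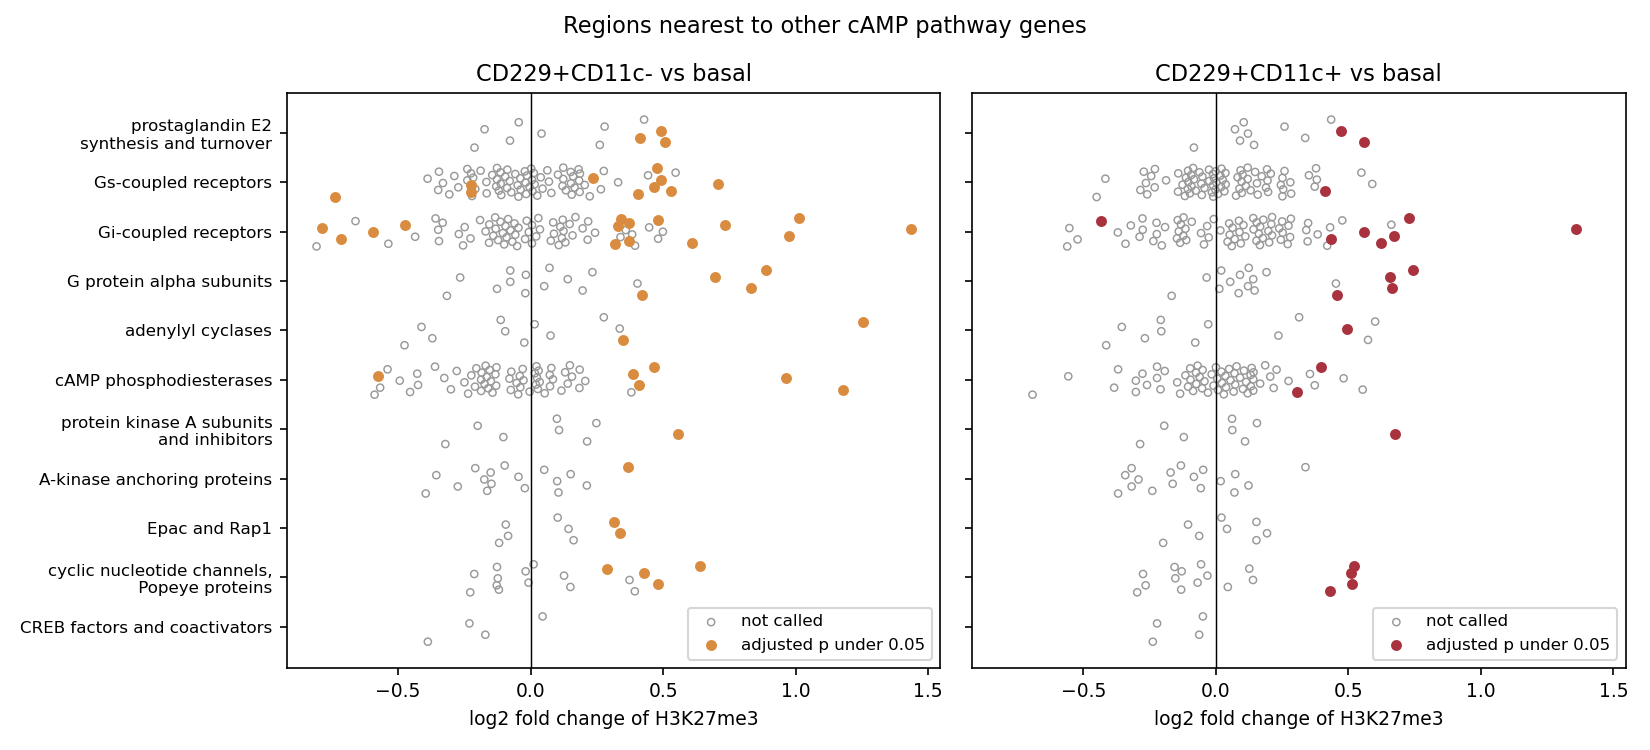
log2 fold change of H3K27me3 against basal microglia (x axis) of the 319 regions of other cAMP pathway genes, by role (y axis), in CD229+CD11c- (left) and CD229+CD11c+ cells (right). Filled points passed edgeR's test at an adjusted p under 0.05 (40 higher and 8 lower on the left, 21 higher and 1 lower on the right), open points did not.

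Between the subsets, 23 list regions rose and 4 fell in CD229+CD11c- against CD229-CD11c- cells, where 8.35% of all regions changed, by edgeR's test without a block. With library totals 13 rose and 24 fell, and with loess offsets 6 rose and 5 fell. In CD229+CD11c+ against CD229-CD11c- cells 1 list region rose and 0 fell, where 0.547% of all regions changed; it was the Gnas region 0.7 kb upstream (0.50, edgeR adjusted p = 0.0362), and with library totals or loess offsets 0 changed. Same-numbered libraries of these subsets deviated together, as did tagged libraries of different number, and with the replicate number as a block the list's count was 72 in CD229+CD11c- cells and 28 in CD229+CD11c+ against CD229-CD11c- cells, with 4595 and 2025 over all regions. In CD229+CD11c+ against CD229+CD11c- cells 0 list regions rose and 4 fell, where 0.824% of all regions changed; they were the start-site regions of Adcy6, Gcgr (-0.45), Pth1r (-0.34) and Htr6 (-0.28), and with library totals 1 fell, and with loess offsets 1 rose and 1 fell. These counts were small and moved with single libraries: without CD229+CD11c+ replicate 1 or 2, or CD229+CD11c- replicate 3, the count of 4 was 0, and without CD229+CD11c- replicate 1 or 2 it was 2.

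The counts against basal also rested on single libraries. In CD229+CD11c+ cells the 22 list regions came to 5 without basal replicate 4, 9 without basal replicate 3 and 7 without CD229+CD11c+ replicate 1 or 2, and in CD229+CD11c- cells the 48 came to 28 without basal replicate 4 or CD229+CD11c- replicate 1 and 31 without CD229+CD11c- replicate 2. Among the member differences of at least 0.5 on the log2 scale, Pde4a in CD229+CD11c- against basal cells was the one start-site value that moved by over 1.5 times, to 0.48 with loess offsets.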

How the data were processed

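H3K27me3 was measured in 14 libraries, with 14 inputs; tag counts were deposited for 12, and the basal libraries numbered 1 and 2 gave the regions. The submitters' processing notes name HOMER, DESeq2, the aligners Bowtie2 (2.3.4.1) and STAR (2.7.0f), the read trimmer fastp (0.20.0) and the builds GRCm38 and mm10, without saying which step each served. Per the file headers, the authors called regions with HOMER on the 2 basal libraries against 2 inputs (size 1250, L 0, F 2). The deposited raw table gives unnormalized tag counts per region, with a score column, for the regions and 1 added by the authors. The deposited log2 values of the basal libraries over input served to describe enrichment, with their p-value columns not used. The authors' normalized signal and log2 fold changes served as an alternative, and region size and distance to the start (the other unit) are as deposited.

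Counts were tested in all 12 libraries with edgeR 4.0.16 (R 4.3.3): TMM scaling, a model of group alone, robust quasi-likelihood F-tests, Benjamini-Hochberg adjustment over 26326 regions, called at an adjusted p under 0.05. The filter on low counts removed 0 regions, so all 9 member regions passed. Levels are TMM-scaled CPM; SDs are over 3 libraries; p-values measure the spread between libraries only. A region was said to span a start site where the deposited distance of its centre from the nearest start was no more than 0.5 of its length. The main edgeR fit was run on simulated counts that held no tag effect. Depending on the comparison, it recovered 51% to 63% of 1.5-fold changes and 93% to 97% of 2-fold changes. The alternatives that follow were not run on simulated counts. Alternatives were DESeq2 1.42.0, its size factors in edgeR, library totals, loess offsets, no filter, 2 groups only, the title tag as a covariate, tagged libraries only, a replicate block, a fold threshold and leaving out each library. Same-numbered libraries correlated in their deviations by 0.128 to 0.457 (CD229+CD11c- with CD229-CD11c-) and 0.134 to 0.417 (CD229+CD11c+ with CD229-CD11c-), all 3 pairs over 0.1, which is the only basis of the pairing. Tagged libraries of different number correlated about as much (CD229-CD11c- replicate 2 by 0.248 with CD229+CD11c- replicate 1 and by 0.184 with CD229+CD11c+ replicate 1), so number and title tag are not told apart.

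The members and lists were chosen with earlier results of these data known. Members are described by all their regions. Named from the list were the 20 regions with the smallest adjusted p among those called against basal, and any called between subsets; Slco2a1 was named after its values were seen, to complete a count of 3. The further start-site regions of Pde2a, Pde10a and Pde8b, which were not called, are given beside the called ones. The start-site region of Adora1, called but outside this rule, is given beside its named region. Input libraries of the 12 were not used here.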

Additional observations from a re-analysis of the deposited data

Results flagged for a closer look

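The regions below were picked out because the change against basal microglia differed between 2 subsets, which is the same as the difference between those subsets. For the Pde4a start site the difference of CD229+CD11c+ from CD229+CD11c- cells was -2.13 on the log2 scale: every CD229+CD11c- library lay above every basal library and every CD229+CD11c+ library below every one, and this difference was not tested, because the gene was chosen for it. For the list regions the difference was tested by edgeR's quasi-likelihood test with Benjamini-Hochberg adjustment over all regions.

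In CD229+CD11c- against CD229-CD11c- cells, 23 list regions had a higher log2 level. Among receptor genes the differences were 0.80 for Ptger3 at its start site, 0.74 for Adra2a, 0.70 for Chrm4, 0.60 for Gcgr, 0.49 for Vipr1 and 0.48 for Pth1r. Smaller ones were seen for the receptor genes Sstr4 (0.45), Adrb3 (0.40), Htr6 (0.38), Oprd1 (0.32), Adra2b (0.29) and Sctr (0.23). The G protein gene Gnas differed by 0.74 at the region 0.7 kb upstream and by 0.55 at the other called start-site region. The cyclase genes Adcy6 and Adcy5 differed by 1.07 and 0.30. The phosphodiesterase genes differed by 1.01 (Pde2a), 0.41 (Pde4c) and 0.31 (Pde10a) at a start-site region each, and by 1.15 at a region in intron 5 of Pde4b. Another start-site region of Pde2a (0.04) and of Pde10a (0.07) was not called. The region upstream of Ptgs1 differed by 0.34, the channel gene Hcn2 by 0.26 (-0.01 with loess offsets) and the Epac gene Rapgef4 by 0.24.

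In the same comparison 4 list regions had a lower log2 level, all with a receptor gene as the nearest gene: -0.69 at Ptger2, -0.66 at the Adora1 region 10.8 kb from the start, -0.63 at the Ptger3 region 169.4 kb from the start and -0.30 at the Adcyap1r1 region 69.3 kb from the start. None of these 4 regions spanned a start site by the rule used here, but the edge of the Ptger2 region lies close to its start. In CD229+CD11c+ against CD229-CD11c- cells the Gnas region 0.7 kb upstream differed by 0.50. In CD229+CD11c+ against CD229+CD11c- cells Adcy6 (-0.76), Gcgr (-0.45), Pth1r (-0.34) and Htr6 (-0.28) were lower.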

How the results depend on the processing

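The limits of the design are 3 libraries per group, regions called on basal microglia alone and a title tag whose meaning is not given. Of 837 alternative values of the member fold changes, 810 moved by less than the SD between libraries. These include the fits without a filter, which could not move because the filter removed 0 regions. They also include the fits that left out a library. With 3 libraries per group, leaving out 1 moves a group mean by less than that group's SD whatever the values. The SD used was pooled over the 2 groups compared, so these fits could hardly exceed it. The count of 810 is therefore not read as a sign of stability. Among the 20 member differences of at least 0.5, the Adcy8 region 135.4 kb from the start in CD229+CD11c- against CD229-CD11c- cells (0.52) moved to 0.31 in tagged libraries, 0.25 without CD229-CD11c- replicate 1 and 0.93 without replicate 2. Of 73 called fold changes of named list regions, 23 were called under all alternatives; loess offsets reversed Pde4c (-0.012) and Hcn2 (-0.023) in CD229+CD11c- against basal cells and Hcn2 (-0.01) in CD229+CD11c- against CD229-CD11c- cells. Of the 48 list regions called in CD229+CD11c- against basal cells, named or not, loess offsets changed the sign of 4. The causes were not tested.

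Numbers of called regions are given over all regions and then for the list. For CD229-CD11c- against basal cells (0 and 0), the tag as a covariate gave 33 and 1, tagged libraries alone 916 and 13, and leaving out a library 0 to 30 and 0 to 0 (highest without CD229-CD11c- replicate 3). For CD229+CD11c- against basal cells (3419 and 48), library totals gave 5367 (1578 higher, 3789 lower), loess offsets 1906 and 26, the tag covariate 5828 and 85, tagged libraries 5532 and 85, a fold threshold of 0.5 on the log2 scale 1652 and 21, and leaving out a library 2084 to 3294 and 28 to 52. For CD229+CD11c+ against basal cells (1525 and 22), totals gave 687 higher and 796 lower, the 2 groups alone 2977 and 45, the tag covariate 4538 and 63, tagged libraries 4274 and 59, the fold threshold 706 and 13, and leaving out a library 442 to 1605 and 5 to 28. Counts of both comparisons were lowest without basal replicate 4; the 1525 came to 869 without basal replicate 3, 1012 without basal replicate 5, and 459 and 599 without CD229+CD11c+ replicates 1 and 2.

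For CD229+CD11c- against CD229-CD11c- cells (2199 and 27), totals gave 1059 higher and 1697 lower, loess offsets 772 and 11, the 2 groups alone 16 for the list, the tag covariate 4370 and 64, tagged libraries 3309 and 42, the fold threshold 900 and 12, the replicate block 4595 and 72, and leaving out a library 1532 to 2576 and 16 to 27 (the list lowest without CD229+CD11c- replicate 1). For CD229+CD11c+ against CD229-CD11c- cells (144 and 1), DESeq2 gave 351 and 4, the 2 groups alone 50 and 0, totals and loess offsets 0 for the list, the tag covariate 1638 and 19, tagged libraries 933 and 8, the fold threshold 77, the replicate block 2025 and 28, and leaving out a library 44 to 271 and 0 to 3 (lowest without CD229+CD11c+ replicate 1, highest without CD229-CD11c- replicate 3; 68 without CD229-CD11c- replicate 2 and 59 without CD229+CD11c+ replicate 2). For CD229+CD11c+ against CD229+CD11c- cells (217 and 4), totals gave 28 and 1, DESeq2 668 and 8, loess offsets 47 and 2, the 2 groups alone 631 and 8, the tag covariate 1920 and 16, tagged libraries 1397 and 18, the fold threshold 67 and 1, and leaving out a library 9 to 157 and 0 to 3 (lowest without CD229+CD11c+ replicate 2; 10 without CD229+CD11c+ replicate 1, and 64, 39 and 14 without CD229+CD11c- replicates 1, 2 and 3). The replicate block gave 2199 and 20 there, but 1 of its 3 correlations of same-numbered libraries (0.083 to 0.331) was under 0.1, so the pairing fell short of the threshold for this comparison. The block changed no direction or call among the 32 values of named list regions. No paired analysis was possible against basal because those groups share only the number 3.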
